A study of Homo sapiens with 8 samples.

Results

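The mitosis and kinetochore genes described here are 36 genes whose products build the spindle, attach it to chromosomes, time the separation of sister chromatids and divide the cell. They were chosen by name as mitotic kinases, cyclins, spindle, kinetochore and cytokinesis genes, and symbols were matched to the versioned Ensembl identifiers of the deposited files. All 36 were found among 57815 identifiers, and all 36 passed the minimum of 1 FPKM in both lines. FPKM is a fragment count divided by transcript length and by the mapped fragments of the library, so levels of different genes are compared here per length.

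The 8 RNA-seq libraries came from ABC1 and HCC4006, established human lung adenocarcinoma lines that carry no mutation in *KEAP1* or *NRF2* per the labels. Cells grown in low glucose DMEM with serum were treated for 16 h with DEM at 100 μM, an electrophile that activates NRF2 by inhibiting KEAP1, or with its vehicle DMSO. The 4 groups (vehicle and DEM in each line) held 2 libraries each, named replicates 0 and 1, which the methods describe as biological duplicates of cultured cells, prepared from polyA-selected RNA with a strand-specific kit. The comparisons ask how the level of each gene with DEM differs from vehicle within a line, and whether that response differs between the lines. Each line stands for itself only, and in bulk RNA a lower share of cells in mitosis and less RNA per cell cannot be told apart.

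Entry into mitosis is driven by CDK1 bound to cyclins A and B. PLK1 and the Aurora kinases then shape the spindle, and kinetochores built on CENPA chromatin hold its microtubules. Until every kinetochore is attached, the spindle checkpoint holds back the anaphase-promoting complex, a ubiquitin ligase that with CDC20 and UBE2C destroys cyclin B and securin and so frees separase. Transcripts of most of these genes rise late in the cell cycle, and a tandem of CCAAT boxes, bound by NF-Y, with a cell cycle genes homology region (CHR, bound by MuvB complexes) is a known feature of their promoters.

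Promoters of the members are shown for this reason. RefSeq promoters on GRCh38.p14, 300 bases long with 250 bases before and 50 after the transcription start, were matched for 31 of the 36 members, and no entry was matched for *AURKA*, *UBE2C*, *BIRC5*, *TPX2* and *TTK*. The motifs searched on both strands were the CHR as TTTGAA, the CCAAT box as CCAAT, the E2F site as TTTCCCGC, TTTGGCGC, TTTCGCGC or TTTGCCGC, and the core of the antioxidant response element, where NRF2 binds, as TGACNNNGC. In the sequences below, which run from 200 bases before to 20 bases after the start on the coding strand, capitals mark CHR and CCAAT letters, the latter read as ATTGG and the former as TTCAAA when they lie on the other strand. *AURKB*, *TOP2A* and *CDK1* are among the members that fell most in HCC4006, and *HMMR* is the one called higher.
AURKB: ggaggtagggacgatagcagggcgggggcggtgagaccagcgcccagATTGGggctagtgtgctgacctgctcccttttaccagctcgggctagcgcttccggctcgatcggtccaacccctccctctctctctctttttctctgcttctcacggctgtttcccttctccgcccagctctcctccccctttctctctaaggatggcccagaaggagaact
TOP2A: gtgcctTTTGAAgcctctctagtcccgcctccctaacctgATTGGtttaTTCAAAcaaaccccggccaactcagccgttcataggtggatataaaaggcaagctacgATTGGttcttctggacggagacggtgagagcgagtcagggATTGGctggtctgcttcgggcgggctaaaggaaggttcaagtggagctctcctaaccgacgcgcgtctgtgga
CDK1: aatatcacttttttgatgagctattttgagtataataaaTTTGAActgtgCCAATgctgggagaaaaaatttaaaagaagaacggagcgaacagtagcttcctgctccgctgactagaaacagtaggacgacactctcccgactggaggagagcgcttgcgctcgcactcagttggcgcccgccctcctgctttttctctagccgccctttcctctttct
HMMR: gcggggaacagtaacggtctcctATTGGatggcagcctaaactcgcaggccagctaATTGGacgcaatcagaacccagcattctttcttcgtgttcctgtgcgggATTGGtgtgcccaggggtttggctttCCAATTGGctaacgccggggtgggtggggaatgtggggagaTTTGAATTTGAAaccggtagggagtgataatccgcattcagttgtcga
These windows lie at chr17:8210206-8210425 (minus strand), chr17:40417877-40418096 (minus strand), chr10:60778131-60778350 (plus strand) and chr5:163460432-163460651 (plus strand) of GRCh38.p14. The *HMMR* window holds 2 CHR matches, from -28 to -17 relative to the start, and 5 CCAAT boxes, of which 2 overlap in the letters CCAATTGG. The *TOP2A* promoter holds 2 CHR matches and 4 CCAAT boxes, and the *CDK1* promoter 1 of each. The entry matched for *AURKB* holds 1 CCAAT box and no TTTGAA. Its printed window ends in letters that read as a start codon and the codons after it (from atggcccag on). The start of this entry may therefore lie downstream of the gene's transcription start. Bases further upstream were not searched, so whether the *AURKB* promoter holds a CHR is not known here.

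A CHR match was found in 22 of the 31 member promoters (71.0%), in 15.4% of all 27305 promoters of this length and in 9.45% of the 10043 promoters of genes tested in HCC4006. A CCAAT box was found in 24 member promoters (77.4%), in 35.7% of all and in 36.7% of those of tested genes. Both stood together in 18 member promoters (58.1%), in 6.08% of all promoters and in 4.03% of those of tested genes. Over the 30 CHR matches of the members the first base lay at a median of -29 relative to the start, and over the 53 CCAAT boxes at -79. The 17 matched members called lower in HCC4006 and the 14 that were not held a CHR in 13 and 9 promoters and a CCAAT box in 13 and 11. *AURKB* is counted among the 17 as without a CHR, from the entry described above. The E2F sites were seen in 3 members (9.68%, beside 3.33% of all promoters and 5.45% of those of tested genes) and the NRF2 core in 7 (22.6%, beside 13.6% and 15.2%), among them *ANLN*, *KIF23* and *NUSAP1* of those called lower.

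The depth of single libraries is unknown. The deposited base means, which are the authors' per-gene means of depth-scaled counts over a line, had a sum of 13786938 over all genes in ABC1 and of 13957320 in HCC4006. The base mean of a member ranged from 149.3 to 10760 in ABC1 (median 1288) and from 78.72 to 5262.6 in HCC4006 (median 918.8), with *CDC25C* lowest in both lines. The NRF2 targets *NQO1*, *GCLM* and *HMOX1* rose in both lines, by 1.59, 1.61 and 3.19 on the log2 scale in ABC1 and by 0.89, 2.15 and 3.09 in HCC4006. Epithelial markers were high in all libraries (*EPCAM* at 234 to 401 FPKM). With DEM, 2 of the 5, *KRT8* and *KRT18*, were called lower in HCC4006 (median of the 5 -0.14), and in ABC1 all 5 were below 0 with no call by limma (median -0.37, 3 with an unadjusted p under 0.05). Their part in the members' response was not tested. The lung markers *NKX2-1* and *NAPSA* stood at 42.4 to 47.1 and 12.9 to 16.0 FPKM in HCC4006 but under 1 FPKM in ABC1, and *SFTPB* was at or near 0 in both, so these markers give no check of the label in ABC1. Of the matched markers of other cell types only *CD68* (89.3 to 102 FPKM in HCC4006, 1.55 to 2.54 in ABC1) and *COL1A1* (3.58 to 7.64 FPKM) exceeded 1 FPKM, and both were tested without a call in either line. The endothelial marker *PECAM1* was not matched to an identifier, so its level is not known here. The 2 ABC1 replicates differed more than those of HCC4006. The replicate 1 library had the higher level for 33 of the 36 members with vehicle and for 27 with DEM in ABC1, and for 25 and 21 members in HCC4006. The FPKM total over all genes was also higher in replicate 1 of ABC1 (697394 against 628775 with vehicle, 737534 against 627085 with DEM). It was lower in replicate 1 of HCC4006 (662825 against 697441 with vehicle, 671678 against 693118 with DEM). The share of all genes higher in replicate 1 was not counted. For a member's log2 fold change the standard error had a median of 0.145 in ABC1 and of 0.0938 in HCC4006.

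In HCC4006 most members were lower with DEM. A gene is called at a Benjamini-Hochberg adjusted p under 0.05 over all genes tested, by limma on log2(FPKM + 1) in the 4 libraries of a line. Of 13542 genes tested, 1447 were called lower (10.7%) and 1144 higher (8.45%). Of the 36 members, 19 were called lower (52.8%) and 1, *HMMR*, was called higher. The 16 others were not called, although 15 of them had a log2 fold change below 0, which 34 of all 36 members and 53.0% of all genes had, and 8 an unadjusted p under 0.05. Over all 36, 28 had an unadjusted p under 0.05 by limma, beside 36.8% of all genes tested. The median log2 fold change of the members was -0.40, beside -0.03 over all genes tested. Both DEM libraries lay below both vehicle libraries for 31 members (35.3% of all genes tested), above them for *AURKA* and *HMMR* (29.3% of all), and the groups overlapped for *CCNB1*, *CENPE* and *PRC1*. Expressed as summed FPKM over the 36 members, the vehicle libraries held 1725 and 1706 and the DEM libraries 1343 and 1326.

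**Figure D1:**
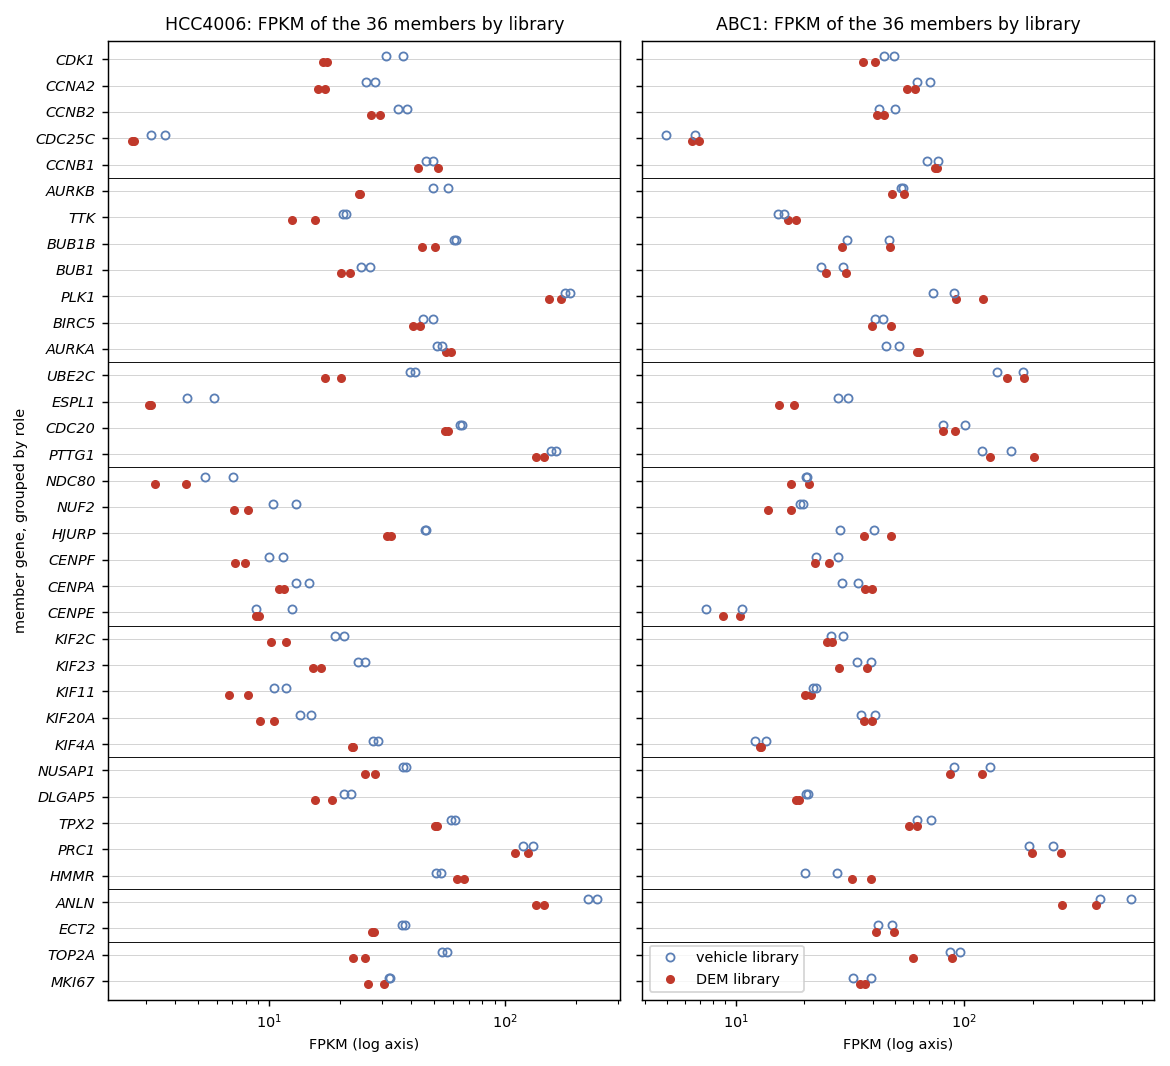
FPKM of the 36 members in each library, on a log axis, with HCC4006 left and ABC1 right. Points are single libraries, 2 per group, and the members are grouped by role. In HCC4006 the points of both DEM libraries lie left of both vehicle libraries for 31 members, and in ABC1 for 8.

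*TOP2A* (chr17:38544777-38574148 of GRCh37, minus strand), which encodes the topoisomerase that untangles sister chromatids, fell most. Its level was 56.7 and 53.7 FPKM in the vehicle libraries of HCC4006 and 22.7 and 25.5 FPKM with DEM, which is -1.16 on the log2 scale (adjusted p = 0.00179 by limma, standard error 0.09), so that 43.7% of the vehicle mean remained. *MKI67*, which coats mitotic chromosomes and is widely used to mark proliferating cells, was not called. It stood at 32.3 and 32.6 FPKM with vehicle and at 30.6 and 26.1 FPKM with DEM (-0.19, standard error 0.10, adjusted p = 0.216). The groups of *MKI67* did not overlap, but its DEM libraries differed from each other by more than their mean differed from that of vehicle.

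Of the genes that start mitosis, *CDK1* (chr10:62538089-62554610 of GRCh37, plus strand), the kinase of mitotic entry, had 31.4 and 37.01 FPKM with vehicle and 16.9 and 17.6 FPKM with DEM in HCC4006. The log2 fold change was -0.94 (adjusted p = 0.00503, standard error 0.11), and the DEM libraries held 50.5% of the vehicle mean. Cyclin A2, its partner in S and G2 phase, fell as well. *CCNA2* was measured at 25.7 and 28.1 FPKM with vehicle and 16.1 and 17.3 FPKM with DEM (-0.65, standard error 0.09, adjusted p = 0.00952). For the B-type cyclins the picture was split. *CCNB2* went from 35.3 and 38.5 to 26.99 and 29.5 FPKM and was called lower (-0.37, standard error 0.09, adjusted p = 0.038), with no overlap between groups. *CCNB1* had 46.3 and 49.5 FPKM with vehicle and 42.6 and 51.7 FPKM with DEM, and its DEM libraries enclosed both vehicle values (-0.03, standard error 0.11, adjusted p = 0.872). *CDC25C*, the phosphatase that activates CDK1, was the least abundant member at 2.62 to 3.62 FPKM and was not called (adjusted p = 0.236).

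Among the mitotic kinases and checkpoint genes, *AURKB* (chr17:8108051-8113918 of GRCh37, minus strand), the kinase of the chromosomal passenger complex that corrects faulty attachments, showed the strongest decrease. Its 2 vehicle libraries held 57.4 and 49.5 FPKM and its DEM libraries 24.4 and 24.04 FPKM (-1.11, standard error 0.09, adjusted p = 0.00251), which is 45.3% of the vehicle mean. The other Aurora kinase, *AURKA*, which acts at spindle poles, was at 51.2 and 53.9 FPKM with vehicle and 55.8 and 58.98 FPKM with DEM and was not called (0.13, adjusted p = 0.277). With vehicle both Aurora genes stood between 49.5 and 57.4 FPKM, a scale per length, and with DEM *AURKB* was below *AURKA*. *TTK*, the kinase that sets the checkpoint in motion, was called lower at 12.5 and 15.7 FPKM with DEM after 20.6 and 21.2 FPKM with vehicle (-0.54, standard error 0.12, adjusted p = 0.0334). *BUB1B*, which encodes the checkpoint protein BUBR1, had 61.9 and 60.6 FPKM with vehicle and 44.3 and 50.3 FPKM with DEM (-0.37, standard error 0.09, adjusted p = 0.0361). Neither gene's groups overlapped. *BUB1*, *PLK1* and *BIRC5*, the last encoding the passenger protein survivin, were not called, with log2 fold changes of -0.27, -0.18 and -0.16 and adjusted p of 0.0989, 0.168 and 0.238. *PLK1* remained among the most abundant members per length, at 152 to 188 FPKM.

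*UBE2C* (chr20:44441215-44445596 of GRCh37, plus strand) encodes the ubiquitin-conjugating enzyme that works with the anaphase-promoting complex. It had 39.6 and 41.3 FPKM in the vehicle libraries of HCC4006 and 17.2 and 20.2 FPKM in the DEM libraries. The difference of -1.08 (standard error 0.10, adjusted p = 0.00328) leaves 46.3% of the vehicle mean. Its partners in anaphase moved less. *CDC20*, the activator of the complex, and *PTTG1*, which encodes securin, had log2 fold changes of -0.20 and -0.19 and were not called (adjusted p of 0.0946 and 0.112), although in both the DEM libraries lay below the vehicle libraries. *ESPL1*, which encodes separase, had 4.498 and 5.87 FPKM with vehicle and 3.17 and 3.11 FPKM with DEM and missed the threshold (-0.57, standard error 0.16, adjusted p = 0.0537).

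All 6 kinetochore members had a log2 fold change below 0, and 3 were called lower. *NUF2*, a subunit of the NDC80 complex that grips microtubules, had 10.4 and 13.1 FPKM with vehicle and 7.12 and 8.11 FPKM with DEM (-0.56, standard error 0.14, adjusted p = 0.0425). *HJURP*, the chaperone that loads CENPA, was at 45.8 and 46.1 FPKM and then at 32.8 and 31.5 FPKM (-0.50, standard error 0.07, adjusted p = 0.0108). It also belongs to the genes that the study set apart for not being raised by DEM in these libraries, so its direction is not independent of that choice. The large outer kinetochore protein gene *CENPF* had 9.95 and 11.5 FPKM with vehicle and 7.95 and 7.16 FPKM with DEM (-0.45, standard error 0.12, adjusted p = 0.0495), just inside the threshold. *NDC80*, the partner of *NUF2*, had nearly the same log2 fold change (-0.56) with a wider standard error (0.18) and was not called (adjusted p = 0.0807). *CENPA*, the histone variant of centromeres, and *CENPE*, a kinetochore motor, were not called either, at -0.27 and -0.21.

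All 5 kinesins were called lower. *KIF2C*, which depolymerises microtubules at the centromere, fell from 19.1 and 20.9 FPKM to 10.2 and 11.8 FPKM (-0.80, standard error 0.11, adjusted p = 0.00856). *KIF23*, a motor of the central spindle, went from 23.9 and 25.6 FPKM to 16.7 and 15.3 FPKM (-0.60, standard error 0.09, adjusted p = 0.012). For *KIF11*, which pushes spindle poles apart, 10.5 and 11.8 FPKM with vehicle stood against 6.78 and 8.16 FPKM with DEM (-0.52, standard error 0.13, adjusted p = 0.0418). In these 3 genes the lowest vehicle library was above the highest DEM library. *KIF20A*, needed for cytokinesis, was measured at 15.1 and 13.6 FPKM with vehicle and at 10.4 and 9.12 FPKM with DEM (-0.51, standard error 0.11, adjusted p = 0.0323). *KIF4A*, a motor on chromosome arms and the midzone, showed the smallest decrease called, from 27.5 and 28.8 FPKM to 22.5 and 22.7 FPKM (-0.31, standard error 0.08, adjusted p = 0.0483).

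Both cytokinesis genes were called lower. *ANLN*, the scaffold of the contractile ring and with vehicle the most abundant member per length, had 245 and 223 FPKM with vehicle and 146 and 135 FPKM with DEM (-0.73, standard error 0.08, adjusted p = 0.00439). *ECT2*, the exchange factor that activates RhoA at the division site, had 37.8 and 36.7 FPKM and 27.4 and 27.7 FPKM (-0.42, standard error 0.08, adjusted p = 0.0182). The spindle proteins were mixed. *NUSAP1*, which bundles microtubules, fell from 38.1 and 36.9 FPKM to 28.1 and 25.6 FPKM (-0.47, standard error 0.08, adjusted p = 0.0181), and *TPX2*, *DLGAP5* and *PRC1* were not called at -0.24, -0.32 and -0.08. *HMMR* (chr5:162887209-162918947 of GRCh37, plus strand), which encodes a hyaluronan receptor that also binds spindle microtubules, went the other way. It rose from 51.03 and 53.2 FPKM with vehicle to 62.5 and 67.2 FPKM with DEM (0.31, standard error 0.08, adjusted p = 0.0404), and its groups did not overlap.

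The number called in HCC4006 depended on having all 4 libraries. With all 4, 28 members and 36.8% of all genes tested had an unadjusted p under 0.05 by limma. The counts of this paragraph for other fits are of members only. They do not show whether calls over all genes were lost alike. Leaving out vehicle replicate 0, DEM replicate 0, vehicle replicate 1 or DEM replicate 1 left 8, 9, 5 and 10 members called lower and none higher, each in a fit where the single remaining library of a group is assumed to vary like the others; 25 to 26 members kept an unadjusted p under 0.05 in 3 of these fits and 19 without vehicle replicate 1. *TOP2A*, *AURKB*, *UBE2C*, *CDK1* and *ANLN* were called lower in each of the 4. *CCNB2*, *CENPF*, *ECT2*, *KIF11*, *KIF20A*, *KIF4A*, *NUF2* and *HMMR* were called in none of them, and no called member changed sign. With genes of any level in the fit instead of a minimum of 1 FPKM, 0 of 36 members were called by limma while 25 had an unadjusted p under 0.05.

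**Figure D2:**
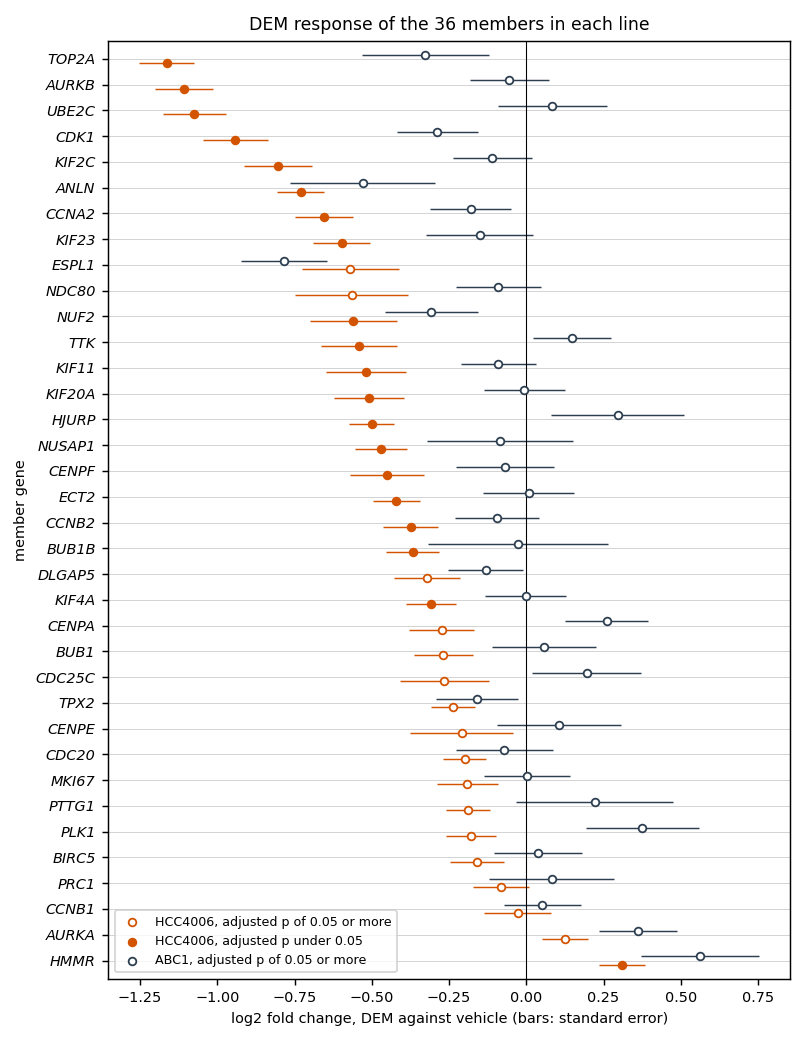
Log2 fold change of each member with DEM against vehicle, on the x axis, in ABC1 and HCC4006, with bars for the standard error of the fit to the 4 libraries of a line. Filled points have an adjusted p under 0.05. The HCC4006 values run from -1.16 (*TOP2A*) to 0.31 (*HMMR*) and the ABC1 values from -0.78 (*ESPL1*) to 0.56 (*HMMR*).

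In ABC1 no member was called. Of 12635 genes tested by limma, 55 were called lower (0.435%) and 97 higher (0.768%), and the members had 0 calls in either direction. Of the 36 members 3 had an unadjusted p under 0.05, against 21.9% of all genes. The members' log2 fold changes were below 0 for 20 and above 0 for 16, with a median of -0.02, the same as over all genes tested (52.3% of which were below 0). Both DEM libraries lay below both vehicle libraries for 8 members (28.2% of all genes), above them for 5 (25.5% of all), and the groups overlapped for 23. The 5 were *AURKA*, *HMMR*, *PLK1*, *TTK* and *CENPA*. In HCC4006 both DEM libraries lay above vehicle for *AURKA* and *HMMR* and below it for *PLK1*, *TTK* and *CENPA*. None of these genes was called in the test of the difference between the lines given below. The summed FPKM of the members was 2084 and 2564 with vehicle and 1981 and 2451 with DEM, so in these sums the step between replicates was larger than the step between treatments. The FPKM total over all genes was higher in replicate 1 of ABC1 as well. As a share of that total the members held 3.31‰ and 3.68‰ with vehicle and 3.16‰ and 3.32‰ with DEM, where neither step was larger throughout.

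The 3 members with an unadjusted p under 0.05 were *ESPL1*, *HMMR* and *AURKA*. *ESPL1* (chr12:53662083-53687422 of GRCh37, plus strand) had 27.98 and 31.04 FPKM with vehicle and 15.5 and 18.03 FPKM with DEM in ABC1 (-0.78 on the log2 scale, adjusted p = 0.0662, standard error 0.14). Its groups were well apart, and it was called lower with a minimum of 5 FPKM, with scaling by the median of ratios or by housekeeping genes, and in the fit of all 8 libraries. *HMMR* had 20.2 and 27.9 FPKM with vehicle and 32.3 and 39.2 FPKM with DEM (0.56, standard error 0.19, adjusted p = 0.176). *AURKA* had 45.5 and 51.8 FPKM with vehicle and 63.4 and 61.9 FPKM with DEM (0.36, standard error 0.13, adjusted p = 0.182). Both genes were higher in each DEM library than in each vehicle library in both lines. *ANLN*, with 394 and 538 FPKM and 268 and 378 FPKM, and *CDK1*, with 44.7 and 49.1 FPKM and 35.96 and 40.6 FPKM, also had non-overlapping groups, at -0.53 (standard error 0.23) and -0.29 (standard error 0.13) on the log2 scale and with adjusted p of 0.258 and 0.269. *PLK1* lay higher with DEM, at 92.2 and 121 FPKM after 73.4 and 89.9 FPKM (0.38, standard error 0.18, adjusted p = 0.299). The members that fell most in HCC4006 were not called here. *TOP2A* had 86.9 and 96.3 FPKM with vehicle and 59.7 and 88.6 FPKM with DEM, with 1 DEM library between the vehicle values, *AURKB* 52.8 and 54.1 FPKM and 48.1 and 54.8 FPKM, and *UBE2C* 139 and 181 FPKM and 155 and 183 FPKM.

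**Figure D3:**
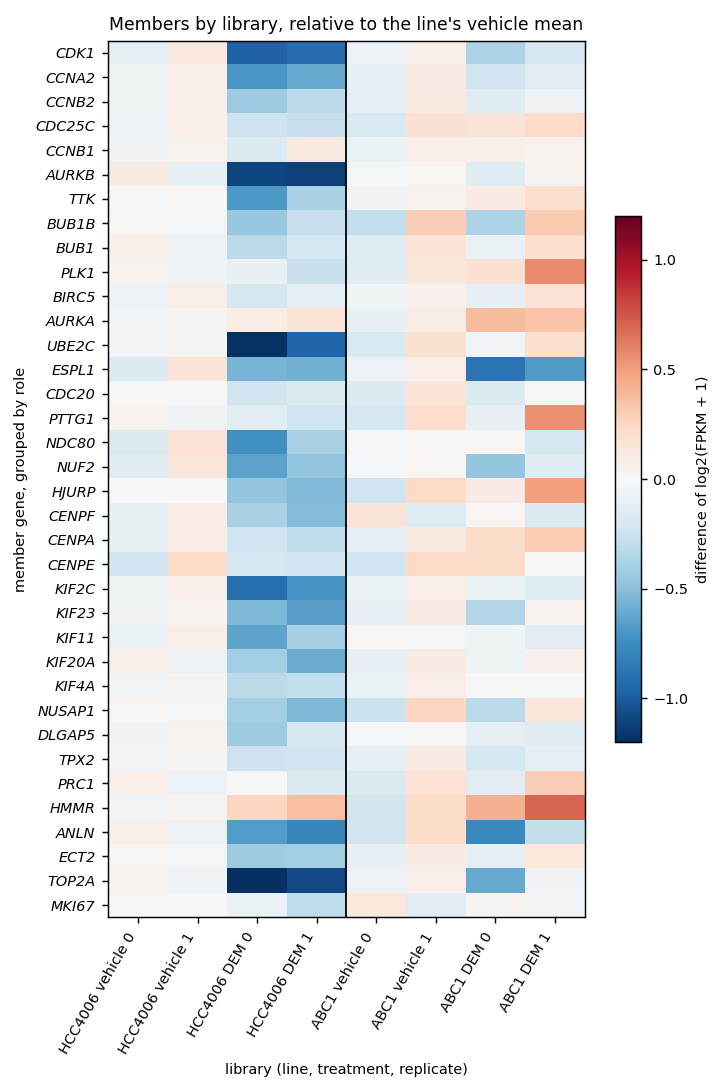
Log2(FPKM + 1) of each member in each of the 8 libraries minus the mean of the 2 vehicle libraries of the same line, by role. In HCC4006 the median over members was -0.42 and -0.35 in the 2 DEM libraries. In ABC1 it was -0.10 and 0.10 in the vehicle libraries and -0.09 and 0.04 in the DEM libraries, so without scaling by the FPKM total the replicates differ there more than the treatments.

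Whether the response differed between the lines was tested with the interaction of line and treatment in all 8 libraries. Of 13682 genes, 45 were called with a lower response in HCC4006 than in ABC1 (0.329%) and 42 with a higher one (0.307%). *AURKB* was the 1 member called. The difference was -1.05 on the log2 scale (95% interval -1.41 to -0.70, standard error 0.15, adjusted p = 0.0384 by limma), from -1.11 in HCC4006 and -0.05 in ABC1. Without each of the 8 libraries in turn the call was lost, and over all alternatives the adjusted p lay between 0.0215 and 0.170 and the difference between -1.16 and -0.95. *UBE2C* had the larger difference, -1.16 (standard error 0.21, 95% interval -1.66 to -0.66), with an adjusted p of 0.072. *TOP2A*, *HJURP*, *KIF2C*, *TTK* and *CDK1* followed at -0.84, -0.80, -0.69, -0.69 and -0.65, with adjusted p of 0.186, 0.208, 0.113, 0.133 and 0.133.

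The direction of the difference was shared by nearly all members. It was below 0 for 35 of the 36 (52.3% of all genes tested), with a median of -0.38 and an unadjusted p under 0.05 for 13 (15.1% of all genes). *ESPL1* was the 1 member above 0, at 0.21 (standard error 0.20, 95% interval -0.25 to 0.68). Most of the 19 members called lower in HCC4006 nevertheless have no established difference from ABC1. For 7 of them the 95% interval of the ABC1 change included the HCC4006 change, as for *ANLN*, where the values were -0.53 and -0.73, and *NUF2*, where they were -0.31 and -0.56. For the other 12 the HCC4006 change lay below that interval. These members were picked by their decrease in HCC4006, and its standard error is left out, so neither count tests a difference. Of the 19, only *AURKB* was called by the interaction test. The members come from the same libraries and are expressed together in the cell cycle, so their shared direction is not that of 36 independent measurements.

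The lines also started from different levels. With vehicle, 20 of the 36 members were lower in HCC4006 than in ABC1 (30.2% of all genes tested) and 5 were higher (36.8%), with a median log2 difference of -0.45. *CDK1*, *CDC25C* and the 3 cyclin genes were all lower, and *ESPL1*, *UBE2C* and *NDC80* differed most, by -2.31, -1.95 and -1.58 on the log2 scale (adjusted p of 4.9e-06, 1.8e-05 and 9.6e-05). *PLK1*, *HMMR*, *KIF4A*, *BUB1B* and *TTK* were higher in HCC4006, by 1.17, 1.10, 1.08, 0.67 and 0.38. *AURKB* started level, with 57.4 and 49.5 FPKM in HCC4006 and 52.8 and 54.1 FPKM in ABC1 (a log2 difference under 0.01 in size, adjusted p = 0.986). Of the 19 members called lower with DEM in HCC4006, 13 were also called lower in HCC4006 than in ABC1 with vehicle and 3 higher. The vehicle libraries of HCC4006 enter both comparisons. Without vehicle replicate 0 of ABC1, or vehicle replicate 0 or 1 of HCC4006, 3 members were called higher in place of 5.

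Other genes of mitosis, not among the 36, were called lower in HCC4006 in unequal shares, to be read against the 10.7% of all genes tested. An unadjusted p under 0.05 by limma was seen for 36.8% of all genes there. Of 30 further kinetochore genes, 15 were called lower (50%) and 0 higher by limma (21 had an unadjusted p under 0.05), with a median of -0.41. *SPC24*, the NDC80 complex subunit, fell from 17.4 and 22.1 FPKM to 7.44 and 7.52 FPKM (-1.28, adjusted p = 0.0041), *ZWINT*, which recruits the ZW10 complex, by 0.92, and *SPC25* by 0.77. Of 11 further checkpoint and passenger genes, 6 were called lower (54.5%), among them *INCENP*, the scaffold that AURKB binds (-0.74), and *TRIP13* (-0.64). Condensin and cohesin genes were called lower for 10 of 18 (55.6%), led by *NCAPH* (-1.26), *ESCO2* (-0.96) and *CDCA5* (-0.90), while the cohesin subunit *STAG1*, named after its value was seen, rose (0.44). The shares of the last 2 lists lay nearer to that of all genes. Of 22 further spindle and cytokinesis genes 4 were called lower (18.2%), *KIF18B* (-0.78), *PLK4* (-0.70), *KIFC1* (-0.58) and *KIF22* (-0.47), and of 17 genes of the anaphase-promoting complex 3 were (17.6%), *FBXO5*, its inhibitor in S and G2 phase (-1.18), *ANAPC4* (-0.67) and *ANAPC2* (-0.43). In ABC1 these 5 lists held 0 calls by limma, with unadjusted p under 0.05 for 3, 0, 4, 4 and 2 genes in the order given here (21.9% of all genes).

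Regulators of mitotic entry and of the transcription of mitotic genes held calls in both directions in HCC4006, where 10.7% of all genes tested were called lower and 8.45% higher. Of 10 genes of mitotic entry, 5 were called lower and 2 higher. The CDK1-inhibiting kinases *WEE1* (-0.93) and *PKMYT1* (-0.74) fell together with *GTSE1* and *MELK*, whereas *CDC25B*, a CDK1-activating phosphatase, rose from 159 and 147 FPKM to 206 and 196 FPKM (0.39, adjusted p = 0.018) and *CKS2*, a CDK subunit, by 0.30, these 2 being named after their values were seen. Of 22 transcription factor genes, 8 were called lower and 1 higher. *FOXM1*, an activator of G2/M genes, was at 73.7 and 68.5 FPKM with vehicle and at 67.5 and 61.0 FPKM with DEM and was not called (-0.15, adjusted p = 0.26). *MYBL2*, the activating partner of the MuvB complex, was called lower at 32.9 and 31.0 FPKM after 53.4 and 49.0 FPKM (-0.66, adjusted p = 0.0069). *E2F8*, a repressor that is itself an E2F target, fell by 1.90. *LIN37*, a MuvB subunit, rose in both lines, by 0.54 in HCC4006 and 1.03 in ABC1 (adjusted p of 0.013 and 0.042), and in ABC1 it was the 1 called gene of these 2 lists.

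Genes of DNA replication were lower in HCC4006 almost throughout. There, 31 of 33 were called lower (10.7% of all genes tested) and 0 higher, with a median of -0.88, beside 19 of 36 and -0.40 for the mitosis genes. *TYMS*, *CCNE2*, *RRM2* and *MCM10* had the largest decreases, between -1.42 and -1.30. In ABC1 the median was -0.49 and 32 of 33 were below 0 (52.3% of all genes), whereas the median of the mitosis genes there was -0.02. By limma 0 were called (0.435% of all genes were called lower), and 15 had an unadjusted p under 0.05 (21.9% of all genes). *CDKN1A*, which encodes the CDK inhibitor p21, went from 13.1 and 15.9 FPKM to 34.8 and 34.8 FPKM in ABC1 (1.22, adjusted p = 0.036 by limma) and from 76.4 and 84.2 FPKM to 83.7 and 80.0 FPKM in HCC4006 (0.03, adjusted p = 0.82). Its part in the members' response was not tested.

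**Figure D4:**
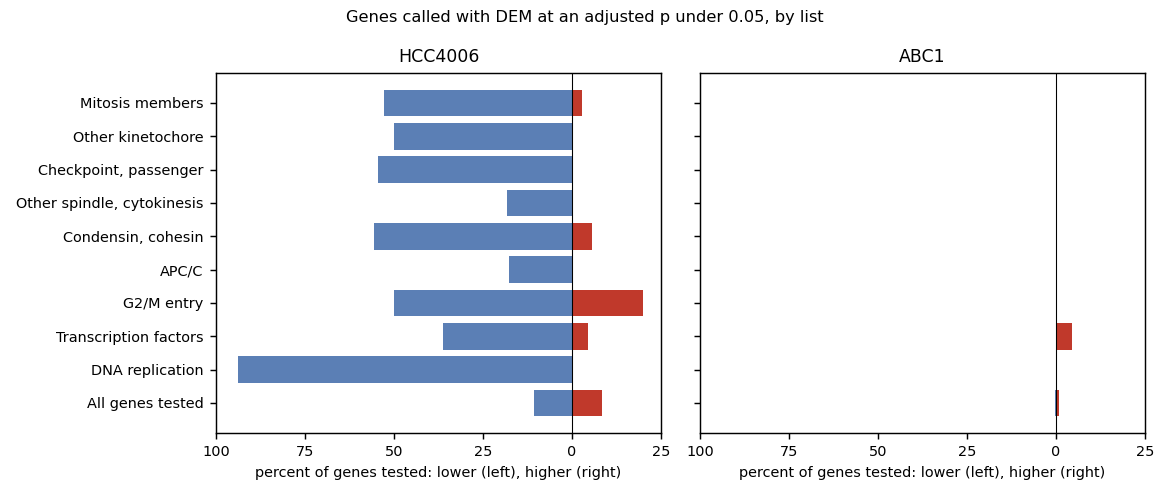
Percent of the tested genes of each list called higher (right of 0) or lower (left of 0) with DEM at an adjusted p under 0.05, in HCC4006 and ABC1. In HCC4006 the DNA replication list reaches furthest left (31 of 33 genes), and the 36 mitosis members stand at 52.8% lower, with 10.7% of all genes tested as the background.

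**Figure D5:**
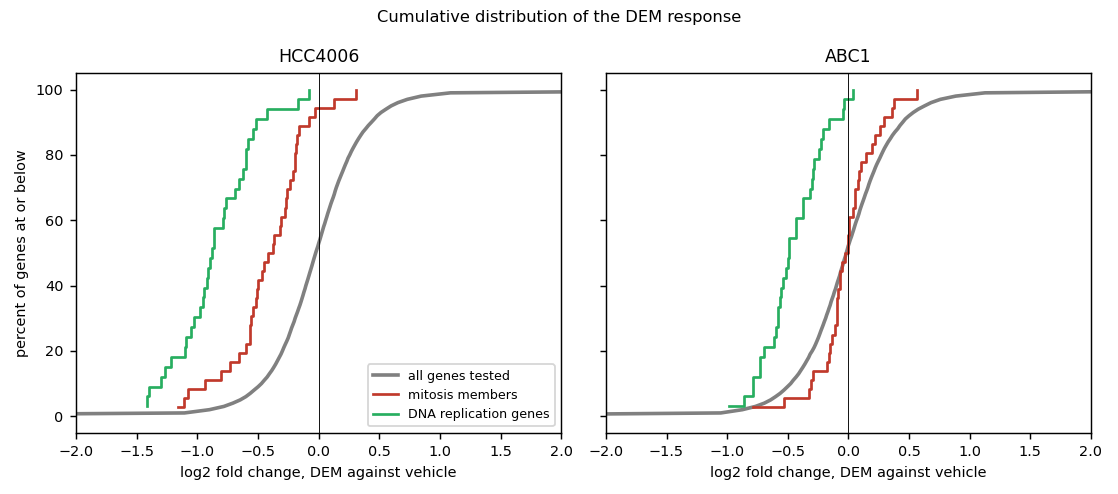
Cumulative percent of genes at or below a given log2 fold change with DEM, for all genes tested, the 36 members and the DNA replication list, in each line. In HCC4006 the members' curve (median -0.40) lies between those of DNA replication (-0.88) and all genes (-0.03), and in ABC1 it is steeper than that of all genes and crosses it near their medians (both -0.02).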

How the data were processed

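The 8 libraries were grouped by line and treatment from the sample labels. The authors deposited an FPKM value per gene identifier and library, and a table per line of their own comparison, from which only the base mean was used as a depth signal; the deposited base mean is the mean of depth-scaled counts over a line's libraries. The fold changes and p-values in those tables were not used. The submitters' processing notes list bcl2fastq 2.15.0, cutadapt 1.15, STAR 2.5.3a, SAMtools, Cuffnorm, HTSeq, DESeq2 and R 3.2.0 with hg19 and GRCh37.p13, whereas the study's methods name TopHat and Cufflinks. FPKM keeps no read counts, so no counting interval is given. Which of these made the FPKM values is not settled by the sources used here.

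Symbols were matched to 55534 of 57815 identifiers. DEM was compared with vehicle by limma 3.58.1 in R 4.3.3 after log2(FPKM + 1), with empirical Bayes shrinkage that follows the mean-variance trend. Genes entered where their FPKM averaged 1 or more over the libraries fitted, with Benjamini-Hochberg adjustment over all genes tested and a threshold of 0.05. The pseudocount makes the log2 fold change of a low gene smaller than its ratio. A fit to the 4 libraries of a line has 2 residual degrees of freedom, and the fit to all 8, used for the difference between lines and for the vehicle groups, has 4. An exact permutation test of 2 libraries against 2 cannot give a p under 0.333. The code was tested on simulated data. Positions are those of GENCODE on GRCh37.

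The members and lists were chosen with earlier results of these data known. All members are named, and of each other list at most 4 called genes per line with the largest change, besides *FOXM1*, *MYBL2*, *CDKN1A* and the check of the treatment. Genes named outside this rule are the cell type markers and those said to be named after their values were seen. A further list is not reported here. Alternatives were other pseudocounts, minimum levels and scalings, no trend, a replicate block, each library left out and 1 fit of all 8 libraries.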

Additional observations from a re-analysis of the deposited data

Results flagged for a closer look

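The response to DEM differed between the lines, by the interaction test of limma over all 8 libraries, for 1 member, *AURKB*, and for the CDK inhibitor gene *CDKN1A*. For *AURKB* the log2 response in HCC4006 minus that in ABC1 was -1.05 (adjusted p = 0.0384), and it was lower with DEM in HCC4006. For *CDKN1A* the difference was -1.19 (adjusted p = 0.0357), and it was higher with DEM in ABC1. What links these 2 genes was not tested. Groups of 2 libraries are too small for a check of single libraries that stand apart.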

How the results depend on the processing

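Of the members called in HCC4006 or for the difference, 0 changed sign under any alternative, and in HCC4006 *TOP2A*, *AURKB*, *UBE2C* and *CDK1* were called under 12 of 13. The number called lower in HCC4006 (19) was 0 with no minimum level, 11 without the mean-variance trend, 11 in the fit of all 8 libraries and 5 to 10 with 1 library left out. The number called higher there (1) was 0 with no minimum, with housekeeping scaling, without the trend, in the fit of all 8 libraries and with each library left out. In ABC1, 1 member, *ESPL1*, was called lower with a minimum of 5 FPKM, the median of ratios, housekeeping scaling and the fit of all 8 libraries. For the difference between the lines, the number called lower (1) was 0 with a pseudocount of 0.1, 2 with the median of ratios and with housekeeping scaling, and 0 with each library left out (9 to 17 had an unadjusted p under 0.05), and the median of -0.38 became -0.27 with a pseudocount of 5 and -0.51 to -0.26 with 1 library left out. Between the vehicle groups the number called higher (5) was 3 with no minimum and 3 to 6 with 1 library left out, and the median was -0.53 to -0.34. With no minimum, genes near 0 enter the fit. The causes of the other shifts were not tested. These counts are of members only and do not show whether calls over all genes shifted alike.

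With the replicate number as a block, in ABC1 3 members were called higher (*PLK1*, *AURKA* and *HMMR*) and 2 lower (*ESPL1* and *ANLN*), in HCC4006 1 higher and 22 lower, and for the difference 0 (22 with an unadjusted p under 0.05). Deviations of same-numbered libraries correlated at 0.26 in ABC1 and 0.05 in HCC4006 across all genes tested, and at 0.59 and 0.32 across the 36 members. No label says what a number shares and there are 2 pairs a line, so whether the numbers pair the samples is not settled. The block values are given here only, without the share of all genes called.

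Of the uncalled members that changed sign, some lay near 0 in the main fit. Others lay further from it, such as *PTTG1* in ABC1 (0.22), *CENPE* in HCC4006 (-0.21) and *ANLN* for the difference (-0.20). With the median of ratios *KIF20A* (0.0086) and *KIF4A* (0.012) changed sign in ABC1 and *CCNB1* (0.0011) in HCC4006. With housekeeping scaling *BUB1B* (0.010), *KIF20A* (0.031) and *KIF4A* (0.034) changed sign in ABC1. With 1 library left out the log2 fold change spanned, in ABC1, *CCNB1* -0.029 to 0.13, *BUB1* -0.094 to 0.21, *BIRC5* -0.096 to 0.17, *UBE2C* -0.10 to 0.27, *CENPE* -0.13 to 0.34, *CENPF* -0.22 to 0.088, *PRC1* -0.13 to 0.29, *ECT2* -0.11 to 0.13, *AURKB* -0.15 to 0.037, *BUB1B* -0.37 to 0.31, *CDC20* -0.23 to 0.088, *KIF20A* -0.10 to 0.088, *KIF23* -0.35 to 0.045, *KIF4A* -0.079 to 0.074, *NUSAP1* -0.35 to 0.18, *MKI67* -0.12 to 0.13, *CCNB2* -0.21 to 0.017, *PTTG1* -0.10 to 0.54 and *NDC80* -0.21 to 0.028; in HCC4006, *CCNB1* -0.17 to 0.11, *CENPE* -0.44 to 0.023 and *PRC1* -0.17 to 0.0091; and for the difference between the lines, *CCNB1* -0.22 to 0.057, *CDC20* -0.29 to 0.032, *TPX2* -0.18 to 0.022, *PRC1* -0.38 to 0.047 and *ANLN* -0.45 to 0.047. The smallest adjusted p among all values that changed sign was 0.475.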

Other observations

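Members of 1 complex or function did not all have the same call in HCC4006. *NUF2* was called and its partner *NDC80* was not, at the same log2 fold change of -0.56, with standard errors of 0.14 and 0.18. *CCNB2* was called lower at -0.37 and *CCNB1* was not at -0.03, *AURKB* was called at -1.11 and *AURKA* was not at 0.13, and *UBE2C* was called at -1.08 while *CDC20* was not at -0.20. *INCENP*, *CDCA8* and *BIRC5*, which encode the other passenger proteins, stood at -0.74, -0.42 and -0.16 beside *AURKB*, *CDCA8* being named after its value was seen. The differences between genes were not tested.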
